A study of Mus musculus with 23 samples.

Results

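Muscle progenitors that overexpress NICD1, the part of the Notch1 receptor that acts inside the cell, were compared before and after engraftment. The comparison sets 4 libraries of cells taken back from muscle (re-isolated N1OE) against 3 libraries of the cells in culture (cultured N1OE), 7 of the 23 libraries in the series. The libraries were chosen by the names of their columns in the deposited table, not by measured values. Levels are in CPM, which corrects read numbers for the depth of a library. A gene was tested when 3 or more of the 7 libraries had 1 CPM or more of it, which held for 13178 of 21264 listed genes.

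The series holds RNA sequencing of mouse iPAX3 cells, pluripotent stem cells in which Pax3 is induced to make myogenic progenitors, and its design text asks how a gain or loss of Notch1 changes these progenitors and the satellite cells they give rise to. Cultured N1OE cells carry the genotype label N1OE and the cell type label of ESC-derived myogenic progenitors. Re-isolated N1OE cells carry the genotype label NICD1 overexpression and the cell type label of donor-derived satellite cells. The controls have the same 2 cell types and the genotype label WT, with 4 cultured and 9 re-isolated libraries. All of these libraries carry the same cell line label, iPAX3, controls included. The labels do not name the host animal, its age, the time after transplantation, the number of animals behind a library, the promoter that drives NICD1 or whether the N1OE line is 1 clone. Cultured cells were extracted with Trizol and sequenced as TruSeq stranded mRNA libraries. For re-isolated cells Buffer RLT and beads were used for the RNA, the NEBNext Single Cell/Low Input kit for the cDNA and Nextera XT for the libraries. Setting and library kit change together, so that their parts in any difference below cannot be told apart.

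Notch receptors are cut after they bind a ligand on a neighbouring cell, and the released intracellular domain enters the nucleus, joins the DNA-binding protein RBPJ and switches on target genes, among them the Hes and Hey repressors. In skeletal muscle, satellite cells are the stem cells that lie beside the fibres and carry the transcription factor Pax7, and Notch signalling is known for keeping them quiescent and for holding back differentiation. NICD1 supplied from a transgene acts without ligand.

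Before the changes are given, the stretches before the starts of 3 Notch target genes are shown, because Hes5 and Hey2 rose and Lfng fell between the settings although all 3 hold the same 6 letters. The letters searched were TGGGAA, the core of the RBPJ binding motif, and their reverse complement TTCCCA, and matches are in capitals. The sequences are the 250 bases before the gene's start from RefSeq (GRCm38.p6, the sequence of mm10), written 5′ to 3′ on the strand of the gene.
Hes5: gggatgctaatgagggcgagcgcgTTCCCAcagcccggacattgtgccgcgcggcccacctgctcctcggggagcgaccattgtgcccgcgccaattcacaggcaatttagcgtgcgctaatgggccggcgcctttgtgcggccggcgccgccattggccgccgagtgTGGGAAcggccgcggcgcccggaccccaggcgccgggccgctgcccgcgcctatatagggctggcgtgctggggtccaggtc
Hey2: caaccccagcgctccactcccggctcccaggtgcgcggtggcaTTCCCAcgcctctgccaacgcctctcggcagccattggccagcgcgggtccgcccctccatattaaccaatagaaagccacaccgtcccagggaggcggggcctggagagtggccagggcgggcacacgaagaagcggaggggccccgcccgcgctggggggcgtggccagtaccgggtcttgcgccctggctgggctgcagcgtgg
Lfng: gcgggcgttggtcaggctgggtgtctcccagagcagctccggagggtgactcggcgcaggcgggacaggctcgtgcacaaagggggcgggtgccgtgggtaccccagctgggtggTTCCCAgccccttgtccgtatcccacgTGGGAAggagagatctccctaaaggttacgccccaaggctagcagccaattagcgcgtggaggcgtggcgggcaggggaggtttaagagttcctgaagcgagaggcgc

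The Hes5 stretch lies at chr4:154960673-154960922 on the plus strand and holds 2 matches, 226 and 82 bases before the start. The Hey2 stretch lies at chr10:30842784-30843033 on the minus strand and holds 1 match, 207 bases before the start. In Lfng, at chr5:140607091-140607340 on the plus strand, the 2 matches begin 135 and 108 bases before the start. Of the 12 Notch target genes in the list used here 8 were in the promoter table, and 3 of these held a match. These 8 genes had 10 stretches, of which 3 held a match. Over all 32851 promoter stretches of that length 21.6% held at least 1 match and 2.77% held 2 or more. A match is a description of the letters and not a measured binding site. The 3 genes with a match did not move in 1 direction between culture and muscle.

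Reads in listed genes ranged from 11637817 to 29154176 over the 7 libraries, and 1 read was worth 0.0343 to 0.0859 CPM. Cultured libraries were closer to each other across genes (Pearson r of log2 CPM 0.983 to 0.993) than re-isolated libraries (0.876 to 0.923), and pairs from different settings had r of 0.560 to 0.587. Cultured replicates 2 and 3 were the closest pair, at 0.993, and each had 0.983 with replicate 1. The cultured group may therefore hold fewer than 3 separate units. The median SD of a gene over the libraries of a group was 0.12 in culture and 0.639 after re-isolation, in log2 CPM. Mitochondrially encoded genes took 3.37% to 3.76% of the reads in culture and 0.286% to 1.15% after re-isolation. The labels do not say that replicates came from separate cultures or animals, so that the p-values rest on the spread among these libraries alone, which may be technical. Among the re-isolated controls, the summed level of 4 Y-linked genes was 0.147 to 6.33 CPM in 4 libraries (replicates 2, 3, 5 and 6, whose column headers lack the suffix GoF) and 77.1 to 267 CPM in the other 5, although all carry the same cell line label. In N1OE it was 72.7 to 76.7 CPM in culture and 25.1 to 117 CPM after re-isolation. Those 4 control libraries do not enter the N1OE comparison, and differences from the controls below passed with each set of controls alone unless stated.

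Between culture and muscle 7672 of 13178 genes passed an adjusted p of 0.05 in N1OE, 58.2% of those tested, with 3328 higher (25.3%) and 4344 lower (33%) after re-isolation (limma with a trend, Benjamini-Hochberg adjustment, two-sided). The median log2 change of all genes was -0.23, and scaling by median ratios moved it by 0.21 to -0.03 and gave 3803 higher and 3772 lower genes. Of the calls, 5558 (42.2% of genes tested) held in every fit that left out 1 library. With cultured replicates 2 and 3 averaged into 1 library 6068 genes passed, 2781 higher and 3287 lower. Because so many genes passed, a count of called members says little unless it is far from these shares. The 25.3% higher and 33% lower are the background for every list below. In the controls, fitted together with the N1OE libraries, 8347 of 14245 genes passed (58.6%), with 3493 higher (24.5%) and 4854 lower (34.1%). Among the 13178 genes in both fits 5950 passed in the same direction in N1OE and control, which is 77.6% of the N1OE calls and 75.4% of the control calls, and 89 passed in opposite directions. The difference between the 2 changes, N1OE minus control, passed for 459 of 14245 genes (3.22%), with 329 higher (2.31%) and 130 lower (0.913%). With the control libraries whose headers carry the suffix GoF alone it passed for 7.05% of genes tested and with the others alone for 12%. One control library, replicate 7, carries the suffix in its header but not in its description, and counting it among the unmarked controls lowers their differences from 1672 to 635. With the sets by header 421 genes passed with all controls and with each set. At an unadjusted p under 0.05 in limma the difference had 1971 of 13178 genes, the background for such counts below. On whole reads recovered from the table, limma-voom called fewer differences, 224 in all. Differences of single genes that it did not call are named as such here or in the closing section. Some sarcomere genes are an exception, because for that list only the number called is given.

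**Figure D1:**
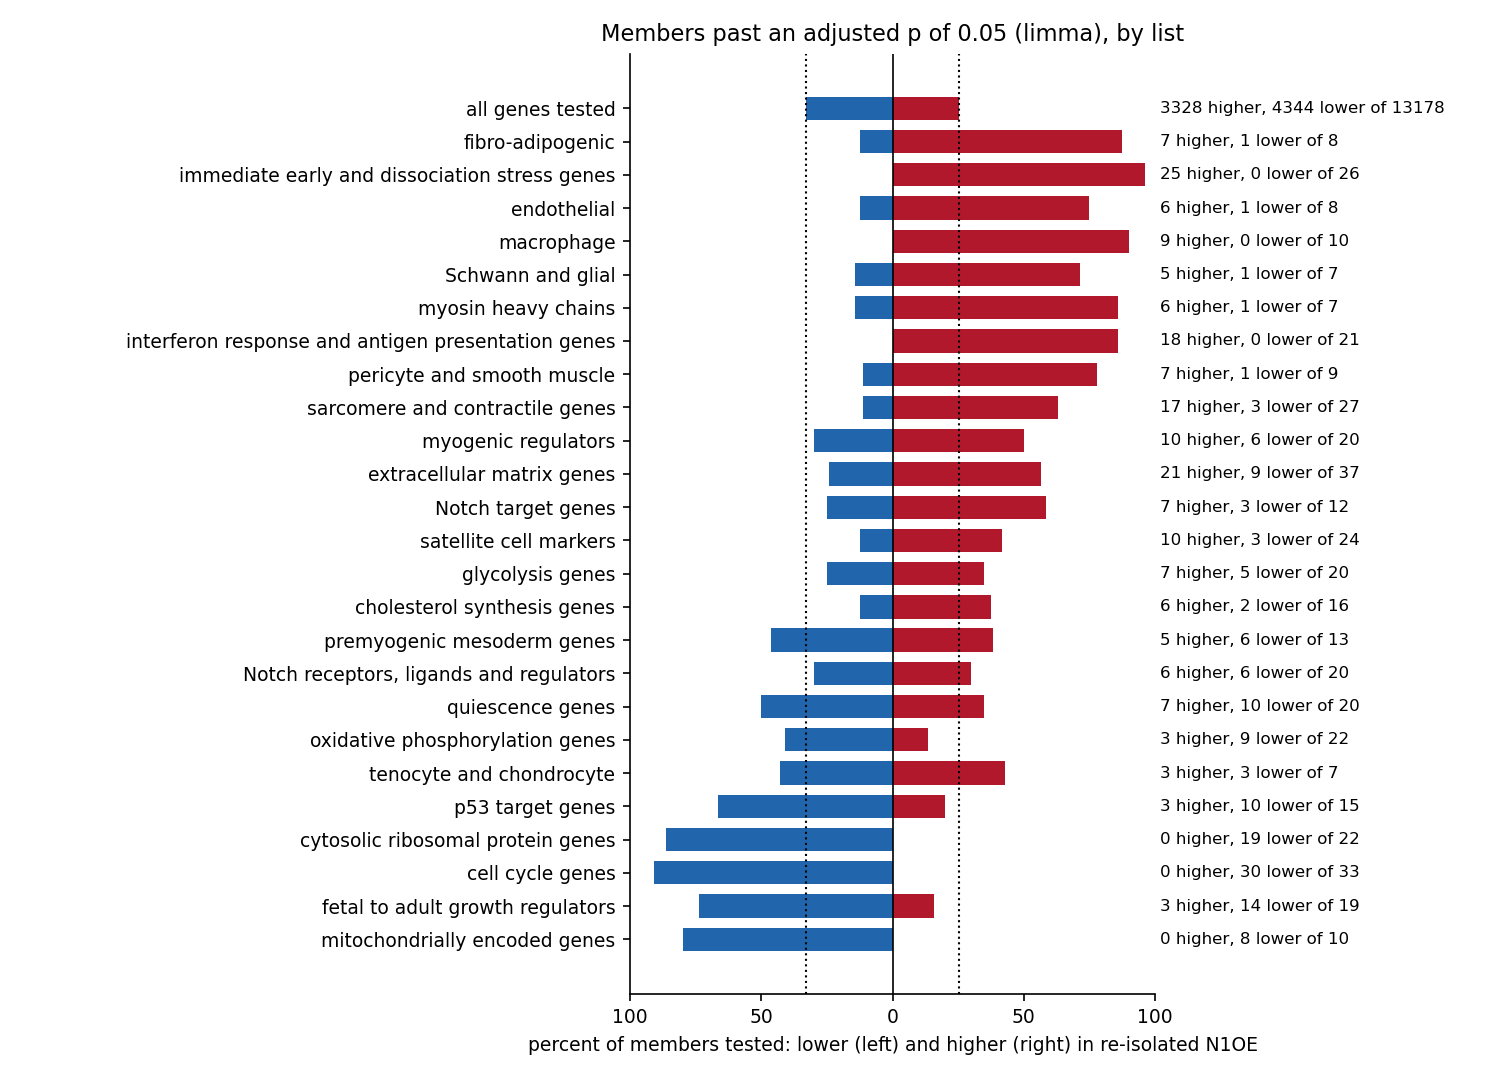
Share of the members tested of each gene list that passed the test in N1OE, in percent, lower after re-isolation to the left (blue) and higher to the right (red), with the counts at the right. Dotted lines mark the shares over all 13178 genes, 33% lower and 25.3% higher. Cell cycle genes have no red bar with 30 of 33 lower, and immediate early genes have no blue bar with 25 of 26 higher.

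The level of the Notch1 gene was read first and set beside the labels. Notch1 (ENSMUSG00000026923, chr2:26457903-26516663 in mm10, minus strand) stood at 370, 297 and 322 CPM in cultured N1OE and at 247, 257, 151 and 98.1 CPM in re-isolated N1OE. All 3 cultured libraries lay above all 4 re-isolated ones. Cultured controls held 61.3 to 105 CPM, below every cultured N1OE library, and re-isolated controls held 14.9 to 174 CPM, which overlaps re-isolated N1OE. The fall in N1OE was 0.91 ± 0.37 (SE) on the log2 scale with an adjusted p of 0.048 in limma, and it passed in only 2 of the 7 fits that left out 1 library, with the highest adjusted p at 0.151 without cultured replicate 1. Median ratio scaling ended the call as well. Reads of the endogenous gene and of a NICD1 transgene cannot be told apart in this table.

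Some Notch target genes, among them Hey1, Heyl and Notch3, stood above every cultured control in cultured N1OE, while Hes5 had no read in either and Bcl6 was no higher. Between culture and muscle the targets did not move together. Of 12 targets tested 7 rose and 3 fell (10 of 12 passed against 58.2% of all genes), with a median log2 change of 0.87 against -0.23 for all genes. In the controls 8 rose and 2 fell and the median was 3.65, with 2.24 for the marked and 4.45 for the unmarked ones. The members that rose in N1OE include Hes1, Hes5, Hey1 and Hey2, which code for transcriptional repressors downstream of Notch, with Gadd45g and Bcl6.

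Hes1 (chr16:30064384-30067796) stood at 64.6, 66.3 and 65.3 CPM in culture and at 292, 438, 225 and 205 CPM after re-isolation. All re-isolated libraries lay above all cultured ones. Hes1 rose by 2.08 ± 0.33 in log2 (SE; limma adjusted p = 0.000111), and in the controls it rose from 26.8 ± 10.5 (SD, n = 4) to 315 ± 199 CPM (SD, n = 9). Hes5, whose upstream stretch is shown above, had no read in the 3 cultured libraries and 2.68, 8.97, 5.93 and 3.27 CPM in the re-isolated ones. Against a floor of 3 reads over the cultured group this is at least 96.9-fold higher (limma adjusted p = 1.35e-06). Hes5 passed the filter only through the re-isolated libraries and had no spread in culture, so that this p-value is a description. Cultured controls had no Hes5 read either, and re-isolated controls ranged from 0 to 16.3 CPM.

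Hey1 and Heyl behaved otherwise. Hey1 (chr3:8663359-8667256) had 162, 108 and 111 CPM in culture and 185, 288, 177 and 257 CPM after re-isolation. The groups did not overlap, but the rise of 0.83 ± 0.32 in log2 (limma adjusted p = 0.0374) passed in only 3 of 7 fits without 1 library, with the highest adjusted p at 0.193 without cultured replicate 2. In the controls Hey1 went from 5.66 ± 4.14 CPM (SD, n = 4) to 136 ± 89.6 CPM (SD, n = 9), a log2 change of 4.41. The difference between the changes, N1OE minus control, was -3.58 ± 0.93 (limma adjusted p = 0.0323), and it was -2.66 (adjusted p = 0.039) with the GoF-marked controls and -4.73 (adjusted p = 5.7e-05) with the unmarked ones. It was lost in 8 of 20 fits without 1 library, with the highest adjusted p at 0.094 without cultured N1OE replicate 1, and limma-voom did not call it (adjusted p = 0.115).

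Heyl (chr4:123233556-123249875), another Notch-induced repressor and a satellite cell marker, had 717, 367 and 401 CPM in culture and 776, 921, 696 and 570 CPM after re-isolation. Cultured replicate 1 lay inside the re-isolated range, and the change of 0.63 ± 0.34 in log2 did not pass (limma adjusted p = 0.132). In the controls it rose from 17 ± 15.7 CPM (SD, n = 4) to 351 ± 223 CPM (SD, n = 9). The difference was -4.01 ± 1.04 (limma adjusted p = 0.0327). In limma it missed the threshold with the marked controls alone (-3.18, adjusted p = 0.053) and passed with the unmarked ones (-5.04, adjusted p = 0.00064). It was lost in 8 of 20 fits without 1 library, with the highest adjusted p at 0.103 without cultured N1OE replicate 1, and limma-voom did not call it (adjusted p = 0.0577). At an adjusted p under 0.05 the difference passed in limma for 1 target as higher and 2 as lower, beside 2.31% and 0.913% of all genes. Limma-voom called none of the 12. At an unadjusted p under 0.05 in limma there were 7 of the 12, beside 1971 of 13178 genes.

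**Figure D2:**
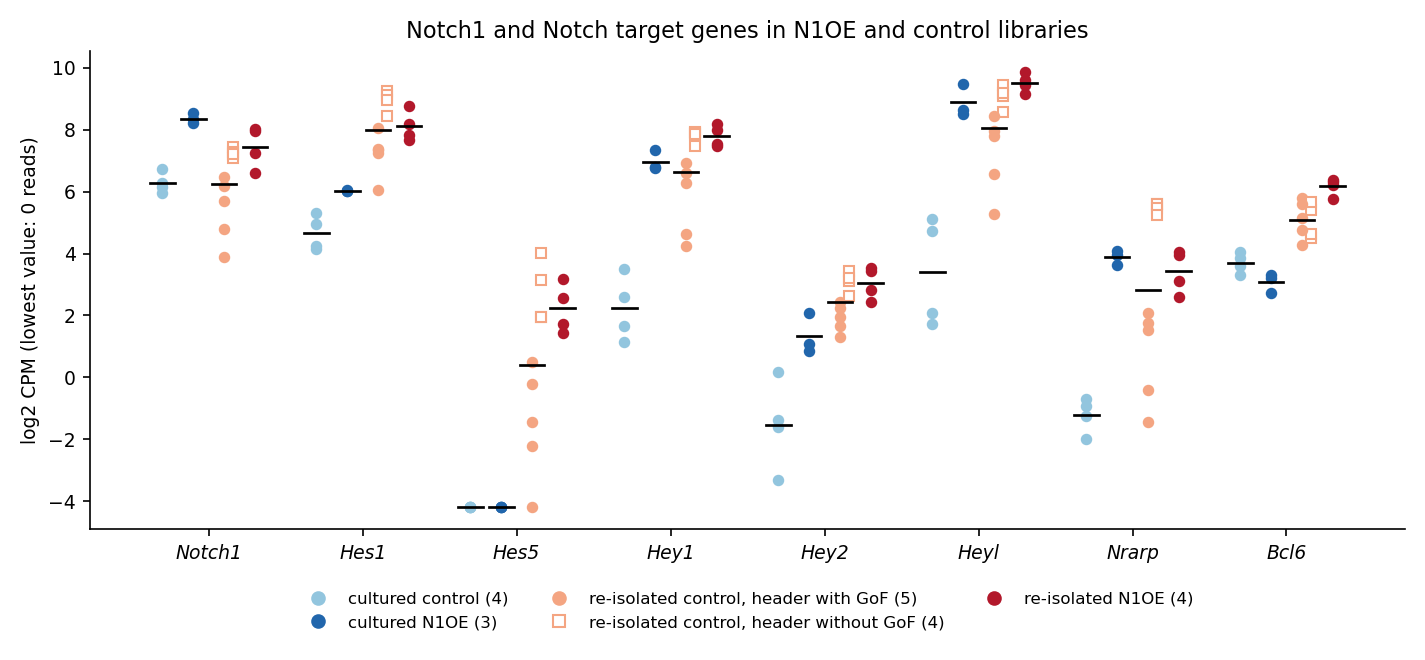
Level of Notch1 and 7 Notch target genes in log2 CPM in each library of the 4 groups, with cultured and re-isolated controls beside cultured and re-isolated N1OE. Each point is a library, black lines are group means of log2 CPM, and open squares are re-isolated controls whose header lacks GoF. Hey1 and Heyl in cultured N1OE lie above all 4 cultured controls, and after re-isolation the ranges of N1OE and control overlap.

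Hey2, another repressor of the Hey family, stood at 4.16, 1.76 and 2.08 CPM in culture and at 7.03, 10.7, 5.41 and 11.5 CPM after re-isolation, with no overlap. It rose by 1.71 ± 0.45 in log2 (limma adjusted p = 0.00538). Nrarp, a feedback inhibitor that binds the NICD complex, had 12.4, 16.9 and 15.3 CPM in culture and 16.6, 15.4, 6.01 and 8.56 CPM after re-isolation. Its groups overlapped and it did not pass in N1OE (log2 change -0.46 ± 0.41, limma adjusted p = 0.361). Gadd45g, a growth arrest and stress gene, rose from 20.7, 22.9 and 24 CPM to 1997, 1766, 1562 and 796 CPM, a log2 change of 6.0 ± 0.35 (limma adjusted p = 1.97e-08), and it rose by 4.86 in the controls.

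Bcl6, a transcriptional repressor, went from 6.63, 9.75 and 9.24 CPM to 74, 83.7, 79.7 and 54.6 CPM, and its rise of 3.09 in log2 exceeded that in the controls by 1.70 ± 0.46 (limma adjusted p = 0.0409), a difference lost in 12 of 20 fits without 1 library and not called by limma-voom. The 3 targets that fell were Lfng, Notch3 and Dtx4. Lfng, the Fringe enzyme that adds sugars to Notch receptors, had 78.7, 54.1 and 51.6 CPM in culture and 5.52, 8.35, 3.78 and 3.16 CPM after re-isolation. It fell by 3.62 ± 0.40 in log2 (limma adjusted p = 4.8e-06), and by 2.58 in the controls. Notch3, a receptor gene that Notch also induces, fell by 2.98 ± 0.32 from 720, 545 and 569 CPM to 93, 94.1, 79 and 50.5 CPM. For Dtx4, a ubiquitin ligase of the Deltex family, the fall of 0.88 ± 0.30 ended under median ratio scaling and without cultured replicate 2 or 3.

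Among 20 other receptors, ligands and regulators of the pathway 6 rose and 6 fell, with a median log2 change of -0.29. These shares were near those of all genes. Notch2, a Notch receptor of satellite cells, fell from 323, 297 and 300 CPM to 25.1, 42.9, 27.5 and 15.3 CPM (log2 change -3.56 ± 0.35, limma adjusted p = 1.99e-06). Rbpj, the DNA-binding partner of NICD, stood at 70.4, 78.9 and 73.5 CPM in culture and at 34.1, 76.5, 103 and 120 CPM after re-isolation. Its re-isolated libraries lay on both sides of the cultured ones and its log2 change was 0.02 ± 0.40. Of the ligands, Dll1 rose by 1.28 and Jag1 by 0.99, and the call of Jag1 (adjusted p of 0.0454 in limma) held in 3 of 7 fits without 1 library. None of the 20 passed limma's test of the difference from the controls, against 3.22% of all genes, and limma-voom called none. At an unadjusted p under 0.05 there were 3, beside 1971 of 13178 genes.

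Of the satellite cell markers tested, Pax7 rose the most, while Pax3 fell. Pax7 (chr4:139737062-139833528), the transcription factor that defines satellite cells, stood at 0.891, 0.189 and 0.0508 CPM in culture and at 91.8, 154, 98.6 and 98.1 CPM after re-isolation. Its rise of 8.54 ± 0.59 in log2 (limma adjusted p = 8.91e-08) held in all 7 fits without 1 library. With under 1 CPM in every cultured library, Pax7 passed the filter only through the re-isolated ones. In the controls it rose from 0.0561 ± 0.0844 (SD, n = 4) to 56.1 ± 32.2 CPM (SD, n = 9), and the difference of -0.46 ± 0.90 did not pass (limma adjusted p = 0.88). In these bulk libraries more cells of a type and more RNA per cell cannot be told apart.

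Pax3 (chr1:78101267-78197134), its relative of the embryonic muscle lineage, had 358, 545 and 553 CPM in culture and 45.4, 44.9, 75.5 and 57.8 CPM after re-isolation. It fell by 3.12 ± 0.32 (limma adjusted p = 2.62e-06). Reads of the induced Pax3 transgene of the iPAX3 line cannot be told from those of the endogenous gene here. Myf5, a determination factor carried by many satellite cells, had 90.3, 152 and 173 CPM in culture and 68.4, 46.4, 62.6 and 65.3 CPM after re-isolation. Its fall of 1.15 ± 0.33 (limma adjusted p = 0.0081) was lost without cultured replicate 2 (adjusted p = 0.062) or 3 (adjusted p = 0.084).

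Of 24 satellite cell markers 10 rose (41.7%) and 3 fell (12.5%), beside 25.3% and 33% of all genes. Their median log2 change was 0.78. Vcam1, a surface protein used to sort these cells, went from 132, 166 and 170 CPM to 528, 1066, 741 and 1349 CPM, a rise of 2.48 ± 0.36. Itga7, the laminin receptor subunit, rose by 1.86 ± 0.35 from 82.3, 83.8 and 81.1 CPM to 390, 456, 255 and 176 CPM. The steps of Cd34 (6.74 ± 0.55), Chodl (6.92 ± 0.36) and Asb5 (8.12 ± 0.51) were larger, from under 6 CPM in every cultured library. Calcr, the calcitonin receptor of quiescent satellite cells, had 69.8, 66.5 and 62.7 CPM in culture and 31.5, 54, 45.5 and 57.3 CPM after re-isolation, and its change did not pass (limma adjusted p = 0.163). Cdh15, or M-cadherin, had 599, 520 and 513 CPM in culture and 728, 813, 553 and 300 CPM after re-isolation (log2 change 0.05 ± 0.37). Met, the receptor for hepatocyte growth factor, fell by 1.84 ± 0.37.

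Chrdl2, an antagonist of BMP signals, differed between N1OE and control. It had 8.56, 1.83 and 1.93 CPM in cultured N1OE and 136, 290, 174 and 172 CPM in re-isolated N1OE. In the controls it was at 38.5 ± 54.8 CPM (SD, n = 4) and 22.9 ± 28.2 CPM (SD, n = 9). The difference was 6.24 ± 1.69 (limma adjusted p = 0.042), with 6.48 for the marked and 5.93 for the unmarked controls, and it was lost in 12 of 20 fits without 1 library, with the highest adjusted p at 0.134 without cultured N1OE replicate 2. Limma-voom did not call it.

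Of 20 genes tied to quiescence 7 rose (35%) and 10 fell (50%), beside 25.3% and 33% of all genes. Their median log2 change was -0.62, and -0.41 under median ratio scaling. Btg2, an antiproliferative gene that also responds early to stimulation, rose from 143, 113 and 111 CPM to 2309, 3867, 3031 and 2980 CPM (4.62 ± 0.32), and Rgs4, a regulator of G-protein signals, rose by 5.80 ± 0.50. Foxo4, a Forkhead factor, fell from 163, 156 and 153 CPM to 5.04, 7.79, 4.3 and 4.41 CPM. The cyclin-dependent kinase inhibitors Cdkn1b (-3.16 ± 0.36) and Cdkn1c (-4.23 ± 0.50) fell too. Fzd4, a Wnt receptor, fell from 300, 562 and 383 CPM to 58.7, 112, 81 and 90.9 CPM in N1OE and rose by 1.07 in the controls, and the difference was -3.34 ± 0.66 (limma adjusted p = 0.0047).

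**Figure D3:**
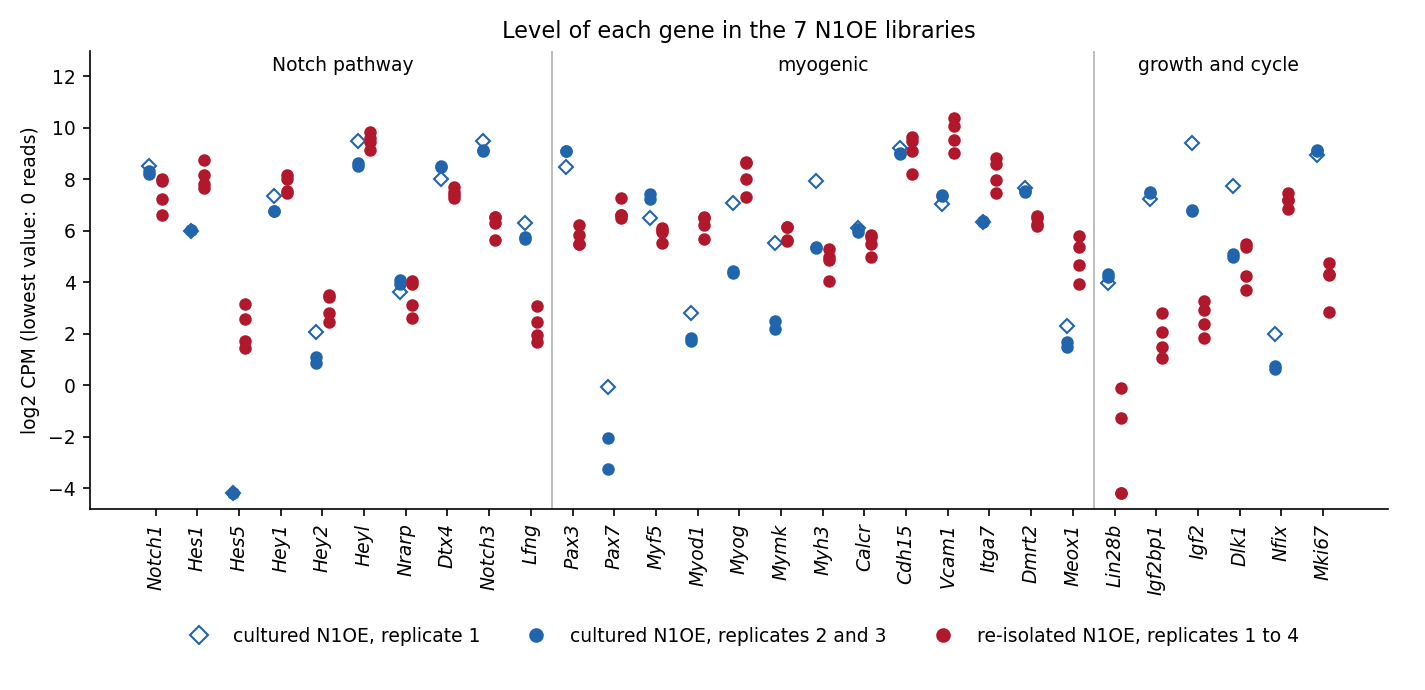
Level of the Notch, muscle and proliferation genes in log2 CPM in each of the 7 N1OE libraries, cultured and re-isolated. Each mark is a library, and open diamonds are cultured replicate 1. Pax7 rises from under 1 CPM to 91.8 CPM or more, Pax3 and Mki67 fall, and Myog, Mymk and Myh3 are higher in cultured replicate 1 than in the other 2 cultured libraries.

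Muscle differentiation genes were low in cultured N1OE and many of them rose after engraftment. Of 20 myogenic regulators 10 rose and 6 fell in N1OE, with a median log2 change of 1.15, against 6 and 7 and a median of -0.19 in the controls. That control median was -0.69 with the marked and 0.33 with the unmarked controls, so that its sign depends on the control set. The difference from the controls passed for 2, both higher in N1OE, beside 2.31% of all genes. With the marked controls 5 passed as higher, where 4.76% of all genes did. With the unmarked ones 4 passed as higher and 2 as lower, beside 6.81% and 5.2% of all genes. Myod1, which commits cells to the muscle lineage, had 6.88, 3.21 and 3.55 CPM in culture and 74.5, 94.2, 90.3 and 51.4 CPM after re-isolation, a rise of 4.12 ± 0.38 (limma adjusted p = 9.49e-07). In the controls it was at 35.7 ± 21.1 CPM (SD, n = 4) and 77.1 ± 77.3 CPM (SD, n = 9). The difference of 3.73 ± 1.25 did not pass with all controls (limma adjusted p = 0.12). It passed with each set alone, at 5.17 with the marked and 1.94 with the unmarked controls.

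Myog (chr1:134289989-134292548), the factor that starts terminal differentiation, stood at 137, 20.6 and 21.4 CPM in culture and at 261, 403, 414 and 161 CPM after re-isolation. Cultured replicate 1 was well above the other cultured libraries and still below every re-isolated one. Myog rose by 2.88 ± 0.58 (limma adjusted p = 0.000876) in N1OE and fell by 1.49 in the controls, from 527 ± 337 CPM (SD, n = 4) to 161 ± 61.8 CPM (SD, n = 9). The difference was 4.37 ± 0.77 (limma adjusted p = 0.0018), and it was 4.25 with the marked and 4.52 with the unmarked controls. It passed in all 20 fits that left out 1 library, with the highest adjusted p at 0.0126.

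Mymk, the membrane protein that fuses myoblasts, had 46.2, 4.47 and 5.64 CPM in culture and 49.3, 71.7, 71.2 and 49.5 CPM after re-isolation. Mymk rose by 2.49 ± 0.63 (limma adjusted p = 0.00407), and its fusion partner Mymx rose by 2.12 ± 0.58. Msc, or musculin, a repressor of the MyoD family's activity, went from 5.2, 1.38 and 1.78 CPM to 605, 578, 496 and 543 CPM. That rise of 7.85 ± 0.41 came with a rise of 10.18 in the controls.

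Of 28 sarcomere and contractile genes 27 were tested, and 17 rose and 3 fell in N1OE, with a median log2 change of 2.30 (15 to 19 rose in the fits without 1 library). In the controls 4 rose and 11 fell, and the median was -0.76. The control change turned with the control set, from 2 higher, 15 lower and a median of -1.67 with the marked controls to 7 higher, 6 lower and a median of 0.10 with the unmarked ones. The test of the difference passed for 7 of them, all higher in N1OE (2.31% of all genes were higher), which were Acta1, Actn3, Mybpc1, Myl1, Myom2, Tnnt2 and Ttn. Limma-voom called 3 of the 27 tested and so not all of these 7, and of those it did not call only Tnnt2 is named below. With the marked controls alone 18 passed as higher and none as lower, where 4.76% of all genes were higher and 2.29% lower. With the unmarked ones 8 passed as higher and 2 as lower, beside 6.81% and 5.2% of all genes. Actn3 did not pass with the unmarked controls (limma adjusted p = 0.052).

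Acta1, skeletal actin, stood at 46.9, 7.24 and 8.58 CPM in culture and at 847, 686, 1633 and 841 CPM after re-isolation. It rose by 6.04 ± 0.55 (limma adjusted p = 1e-06), and the difference from the controls was 4.61 ± 1.10 (limma adjusted p = 0.018), with 5.45 for the marked and 3.56 for the unmarked controls. It was lost without cultured N1OE replicate 2 (adjusted p = 0.0884) or 3. Tnnt2, the cardiac troponin T that embryonic muscle also makes, had 60.4, 12.3 and 11.4 CPM in culture and 84.7, 92.8, 179 and 72 CPM after re-isolation. It rose by 2.30 ± 0.53 in N1OE and fell by 1.78 in the controls, from 276 ± 150 to 93.6 ± 70.7 CPM (SD, n = 4 and 9). The re-isolated ranges of N1OE and control overlapped and the cultured ranges did not. The difference of 4.08 ± 1.03 (limma adjusted p = 0.027) was lost in 6 of 20 fits without 1 library, with the highest adjusted p at 0.116 without cultured N1OE replicate 3, and limma-voom did not call it.

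Myl1, a fast myosin light chain, had 37.1, 5.22 and 4.57 CPM in culture and 142, 100, 310 and 225 CPM after re-isolation (4.20 ± 0.63). Its difference from the controls was 4.76 ± 1.05 (limma adjusted p = 0.011), lost without cultured N1OE replicate 2 or 3 (adjusted p = 0.0597 for the latter). Myom2, a protein of the sarcomere's M-band, went from 9.01, 1.57 and 1.83 CPM to 24.7, 16, 57.1 and 16.6 CPM, and from 152 ± 117 down to 26.5 ± 11 CPM (SD, n = 4 and 9) in the controls. The difference of 5.21 ± 0.83 (limma adjusted p = 0.0008) passed in each of the 20 fits without 1 library, and it was 5.21 with either set of controls. Troponin and tropomyosin genes went the other way for Tnnt3 (-2.04 ± 0.47), Tpm1 (-2.28 ± 0.37) and Tpm2 (-1.97 ± 0.31), the 3 members that fell.

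Among the myosin heavy chains, the motor proteins of muscle, 6 of 7 tested rose and 1 fell, and the median log2 change was 4.26. In the controls 2 of 8 rose and 1 fell, with a median of -0.29. None of the 8 passed limma's test of the difference, while 7 had an unadjusted p under 0.05. Summed levels overlapped, at 43.9 to 283 CPM in cultured and 135 to 296 CPM in re-isolated N1OE. In cultured replicates 2 and 3 Myh3 was most of the sum (44.8 and 43.9 CPM), so that the genes that rose were low there. Myh1 (6.84 ± 0.87), Myh2 (4.22 ± 0.82) and Myh4 (4.64 ± 0.62), the adult fast chains, rose, as did Myh8 (3.54 ± 0.74), the perinatal chain. Myh7, the slow chain, rose from 5.89, 0.441 and 0.508 CPM to 29.2, 19.9, 38.2 and 11.9 CPM. Myh3, the embryonic chain, had 245, 41.4 and 40.4 CPM in culture and 16.4, 29.2, 31.9 and 39.1 CPM after re-isolation. Its fall of 1.42 ± 0.56 (limma adjusted p = 0.0427) passed in 2 of 7 fits without 1 library and not under median ratio scaling, whereas in the controls it fell by 5.47 from 1745 ± 1469 CPM (SD, n = 4) to 41.2 ± 34.6 CPM (SD, n = 9).

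**Figure D4:**
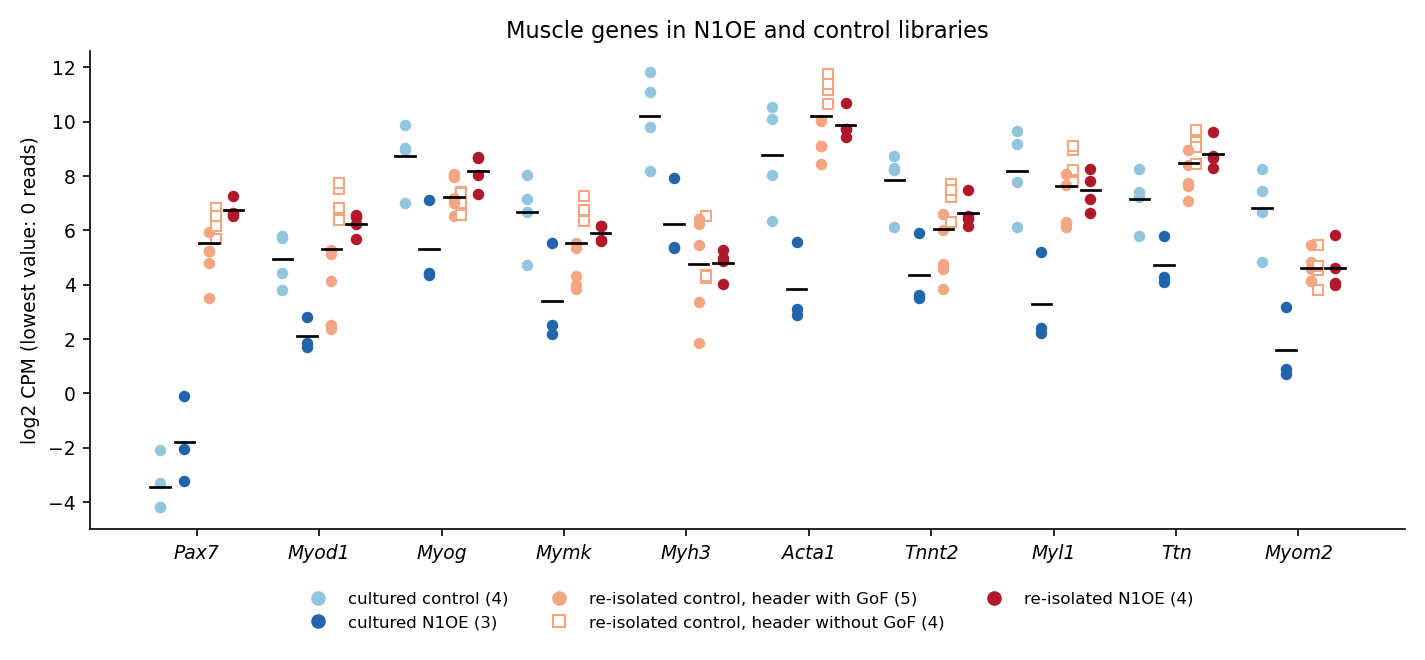
Level of muscle regulators and sarcomere genes in log2 CPM in each library of the 4 groups. Each point is a library, black lines are group means of log2 CPM, and open squares are re-isolated controls whose header lacks GoF. The mean of cultured N1OE is the lowest of the 4 for Myog, Acta1, Tnnt2, Myl1 and Myom2, with replicate 1 above the other 2, and after re-isolation N1OE and control ranges overlap.

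The 3 cultured libraries were not alike in these genes. Cultured replicate 1, the one cultured N1OE library whose header carries GoF, was highest in 26 of 27 sarcomere genes and in 7 of 7 myosin heavy chains, by a median of 2.35 and 3.22 in log2 over the mean of the other 2. It was lowest in 30 of 33 cell cycle genes, by a median of 0.29. Over all genes the median of the same difference was 0.00. Re-isolated replicate 3 stood 1.04 above the mean of the other re-isolated libraries in sarcomere genes and 0.95 below it in cell cycle genes.

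Cell cycle genes fell without exception among those that passed. Of 33 tested 30 fell and none rose, with a median log2 change of -3.14 (33% of all genes fell), and 27 fell in the controls with a median of -2.10 (21 and -1.15 with the marked, 31 and -2.79 with the unmarked controls). Mki67, the marker of dividing cells, had 500, 566 and 552 CPM in culture and 26.7, 19.5, 7.22 and 20.3 CPM after re-isolation. It fell by 5.01 ± 0.41 (limma adjusted p = 3.7e-07). Top2a, the topoisomerase of dividing cells, went from 606, 705 and 700 CPM to 35.7, 36.3, 11.4 and 41.9 CPM. Cenpe (-5.48 ± 0.33) and Bub1b (-5.39 ± 0.38), both of the mitotic spindle and its checkpoint, had the largest falls of the list. Pcna, Tyms and Cdk2, which serve DNA synthesis and entry into it, did not pass, and Pcna had 128, 144 and 141 CPM in culture and 89.1, 68.3, 68.7 and 154 CPM after re-isolation. None of the 33 passed limma's test of the difference with all controls, and limma-voom called none. At an unadjusted p under 0.05 there were 8, beside 1971 of 13178 genes. With the marked controls alone 5 passed as lower in N1OE, where 2.29% of all genes did.

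Regulators of embryonic and fetal growth fell and the nuclear factor I genes of later muscle rose. Of 19 tested 14 fell and 3 rose, with a median log2 change of -3.16, beside 11 and 4 in the controls. Igf2, a fetal growth factor that is imprinted, stood at 675, 111 and 112 CPM in culture and at 7.65, 9.54, 5.16 and 3.53 CPM after re-isolation. It fell by 5.06 ± 0.58 (limma adjusted p = 6.8e-06). Igf2bp1 (-5.55 ± 0.41) and Lin28b (-6.61 ± 0.89), oncofetal RNA-binding proteins, fell as well. Hmga2, a chromatin protein of growing embryonic cells, went from 241, 371 and 375 CPM to 0.103, 0.0516, 0.172 and 0.156 CPM, which were 9 reads over the 4 libraries (log2 change -10.91 ± 0.43).

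Nfix, which switches embryonic to fetal muscle programs, had 3.96, 1.51 and 1.62 CPM in culture and 176, 148, 148 and 115 CPM after re-isolation. It rose by 6.05 ± 0.38 in N1OE and by 3.42 in the controls, and the difference of 2.63 ± 0.71 (limma adjusted p = 0.042) was lost in 10 of 20 fits without 1 library, with the highest adjusted p at 0.15 without cultured N1OE replicate 2, and limma-voom did not call it. Nfib, its relative, rose by 5.39 ± 0.51 from 6.04, 2.2 and 2.03 CPM to 52, 137, 162 and 233 CPM, and its difference was 3.90 ± 0.66 (limma adjusted p = 0.0012). In the other direction, the differences of 2 list members were lower in N1OE, beside 0.913% of all genes. With each control set alone 4 were lower, beside 2.29% of all genes with the marked and 5.2% with the unmarked controls. Hmga1, a chromatin protein related to Hmga2, had 22.8, 44.7 and 43.2 CPM in culture and 4.6, 4.43, 5.41 and 1.35 CPM after re-isolation, with a difference of -2.84 ± 0.65 (limma adjusted p = 0.014) that was lost without cultured N1OE replicate 2 or 3. Gpc3, a glypican of the cell surface, had 617, 149.6 and 147 CPM in culture and 74.7, 32.6, 51.7 and 71.5 CPM after re-isolation and rose in the controls. Its difference of -3.89 ± 1.0 (limma adjusted p = 0.031) did not pass with the marked controls (adjusted p = 0.056) or by limma-voom, and it was lost in 6 of 20 fits without 1 library. Of premyogenic mesoderm genes 13 of 20 passed the filter, and 5 rose and 6 fell. Their median of -0.17 became 0.03 under median ratio scaling, so that its direction depends on the scaling. Meox1 (3.11 ± 0.46) and Tbx18 (4.66 ± 0.40), transcription factors of somites and their derivatives, rose, and Dmrt2, a dermomyotome factor, fell by 1.21 ± 0.28.

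Immediate early and dissociation stress genes, which respond within minutes when tissue is taken apart or cells are stimulated, rose in 25 of 26 cases with a median log2 change of 6.09, and none fell. In the controls 25 of 26 rose as well, with a median of 5.32. Fos, a subunit of the AP-1 transcription factor, had 5.2, 3.34 and 2.03 CPM in culture and 4630, 9073, 5344 and 3234 CPM after re-isolation (10.60 ± 0.41, limma adjusted p = 5.67e-10). Hspa1a, an inducible chaperone, went from 0.842, 1.13 and 0.965 CPM to 3599, 5043, 3249 and 2337 CPM. The member that did not pass was Jund, at 25.7, 19.7 and 35.2 CPM in culture and 24.6, 48.4, 37.3 and 14.8 CPM after re-isolation. The summed level of the list was 870 to 916 CPM in culture and 34173 to 71236 CPM after re-isolation, so that it took a larger share of the re-isolated reads, and its part in other changes was not tested. Fosl2 (difference 2.62 ± 0.38) and Egr3 (2.11 ± 0.54) rose further in N1OE than in the controls, but the difference for Egr3 did not pass with the unmarked controls (limma adjusted p = 0.06) or by limma-voom.

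Interferon response and antigen presentation genes rose in 18 of 21 cases and none fell, with a median log2 change of 3.67 (3.16 in the controls). Isg15, a ubiquitin-like protein induced by interferon, had 0.693, 0.378 and 0.355 CPM in culture and 62.9, 85.8, 59.8 and 106 CPM after re-isolation, and H2-K1, a class I antigen-presenting molecule, rose by 5.19 ± 0.31. None of the 21 passed limma's test of the difference from the controls or limma-voom's. At an unadjusted p under 0.05 there were 7, beside 1971 of 13178 genes. Of 37 extracellular matrix genes 21 rose (56.8%) and 9 fell (24.3%), beside 25.3% and 33% of all genes. Their median was 1.15, against 1.49 in the controls. With the marked controls that median was 1.93 (22 higher, 4 lower) and with the unmarked ones 0.45 (16 higher, 16 lower), on either side of N1OE. The differences turned as well, with 2 higher and 4 lower in N1OE against the marked controls and 9 higher and none lower against the unmarked ones. Of all genes 4.76% were higher and 2.29% lower against the marked controls, and 6.81% and 5.2% against the unmarked ones. Bgn, the proteoglycan biglycan, went from 6.14, 1.64 and 1.42 CPM to 3789, 1961, 3087 and 2950 CPM, and Col1a1, a fibrillar collagen chain, from 4.7, 1.51 and 1.32 CPM to 1854, 1153, 818 and 385 CPM. Col4a1, a chain of basement membrane collagen, fell from 3290.0, 2760 and 2667 CPM to 374, 392, 296 and 167 CPM. Ccn1 and Ccn2, matricellular genes that answer to growth factors and stretch, rose by 6.78 and 6.69, which was 2.71 ± 0.62 and 3.98 ± 0.78 more than in the controls. Limma-voom did not call the difference for Ccn2, and that for Ccn1 was lost without cultured N1OE replicate 2 or 3.

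Markers of several other cell types, such as macrophages, fibro-adipogenic and glial cells, were low in culture and higher after re-isolation. For neuronal markers the summed level was lower. Members read in the re-isolated libraries alone pass the filter only because they are high there, so that the counts are descriptions. Of 12 macrophage markers 6 had no read in any cultured N1OE library, among them Adgre1, C1qa and Ptprc, and the summed level went from between 4.5 and 7.8 CPM to 179, 121, 82 and 36 CPM in re-isolated replicates 1 to 4. The 8 fibro-adipogenic markers summed to 10.8 to 14.5 CPM in culture and to 613 to 1421 CPM after re-isolation, and 2 of them, Lum and Smoc2, had no cultured read. In the re-isolated controls these sums were 53.3 to 764 CPM for macrophages and 204 to 10253 CPM for fibro-adipogenic cells.

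The 8 Schwann and glial markers summed to 43.3 to 45.1 CPM in culture and 218 to 408 CPM after re-isolation, with Cdh19 at 0 in culture. Sox10, a neural crest and glial factor, went from 0.0495, 0.0629 and 0.152 CPM to 155, 107, 91.3 and 42.7 CPM. Ngfr, a neurotrophin receptor, rose by 3.94 ± 0.45, and in the controls its log2 change was -0.07, a difference of 4.01 ± 0.72 (limma adjusted p = 0.0022). The 9 endothelial markers summed to 52.6 to 193 CPM in culture, mostly Flt1, and to 64.3 to 137 CPM after re-isolation, with none at 0 throughout either group, and 6 of 8 tested rose. Hba-a1, an alpha globin, was at 182, 2.06, 4.12 and 0 CPM in re-isolated replicates 1 to 4, so that erythroid reads stood apart in replicate 1. Of 12 lymphocyte and neutrophil markers 7 had no read in re-isolated N1OE, and Cd3e, at 0 in culture, had 1.71, 1.96, 3.27 and 5.29 CPM. The 10 pericyte and smooth muscle markers summed to 642 to 1010 CPM in culture, mostly the Notch target Notch3, and to 1019 to 1446 CPM after re-isolation. Of 9 tested 7 rose and 1 fell, with a median log2 change of 3.26. The 8 tenocyte and chondrocyte markers summed to 53.3 to 58.9 CPM and 266 to 862 CPM. Of 7 of them tested 3 rose and 3 fell, and the median log2 change was -1.28, so that the sum does not stand for the typical member. The 8 neuronal markers summed to 62.0 to 95.4 CPM and 24.1 to 36.8 CPM. Of 4 neuronal markers tested 1 rose and 2 fell, and no fall passed in every fit that left out 1 library. The part of such cells in the rises of matrix, interferon and glial genes was not tested.

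The 10 largest rises among genes that held in every fit without 1 library were mostly genes with no or almost no cultured reads. Such genes pass the filter only through the re-isolated libraries. Prelp, a matrix proteoglycan, went from 0.743, 0 and 0 CPM to 1887, 2099, 2303 and 1033 CPM (log2 change 13.68 ± 0.74). Trf, or transferrin, had no cultured read and 477, 351, 562 and 375 CPM after re-isolation, at least 8202-fold higher against 3 reads over the cultured group. Nkd2, an inhibitor of Wnt signals, likewise went from 0 reads to 236, 185, 177 and 100 CPM, at least 3248-fold higher. Its difference from the controls, which rose from 1.8 ± 2.67 (SD, n = 4) to 22.2 ± 13.5 CPM (SD, n = 9), was 6.54 ± 1.25 (limma adjusted p = 0.0035), which limma-voom did not call.

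Gfap, an intermediate filament of glia, stood at 0.297, 0.378 and 0.0508 CPM in culture and at 901, 776, 859 and 597 CPM after re-isolation. It rose by 11.58 ± 0.45, and in the controls it reached 50 ± 48.4 CPM (SD, n = 9), below every N1OE library. The difference of 4.03 ± 1.10 (limma adjusted p = 0.044) was lost in 13 of 20 fits without 1 library, with the highest adjusted p at 0.18 without cultured N1OE replicate 3, and limma-voom did not call it. Dpt, Spon2 and Bdkrb1, the first 2 of them matrix proteins and the third a bradykinin receptor, and Sln, the calcium pump regulator sarcolipin, were the others besides Hspa1a and Atf3. Sln went from no cultured read to 49, 249, 72 and 233 CPM.

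The 10 largest falls by the same rule included genes best known from neurons. Reln, a secreted guidance protein of the brain, went from 43.5, 109 and 125 CPM to 1.3, 0.361, 0 and 0.415 CPM, and Ptprn, a secretory granule protein, from 61.7, 95.6 and 106 CPM to 0.0343, 0.0516, 1.03 and 1.45 CPM. Basp1, a membrane protein of growth cones, fell by 6.86 ± 0.47, which was 2.72 ± 0.57 more than in the controls (limma adjusted p = 0.0078) and was not called by limma-voom. Ano3, Arid3a, Cbln1, Cdk18, Disp2, Dusp9 and Itgb3 completed the set, with log2 changes from -6.94 for Itgb3 to -8.68 for Cdk18. Flt1, a VEGF receptor that also fell, had 186, 44.2 and 43.9 CPM in culture and 17.7, 7.12, 14.7 and 6.85 CPM after re-isolation, while it rose from 1.71 ± 2.47 to 11.6 ± 6.57 CPM (SD, n = 4 and 9) in the controls.

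Genes whose change differed most from that in the controls were led by Vat1l. Vat1l had 13.9, 25.2 and 27.4 CPM in cultured N1OE and 114, 273, 51.4 and 99.8 CPM in re-isolated N1OE. In the controls it went from 63.3 ± 47.2 CPM (SD, n = 4) to 0.199 ± 0.536 CPM (SD, n = 9). The difference was 11.30 ± 1.19 (limma adjusted p = 1.1e-05), with 11.58 for the marked and 10.95 for the unmarked controls. Otx2, a homeobox factor of the forebrain, rose from 3.91, 6.42 and 6.4 CPM to 7.92, 49.7, 38.5 and 62.9 CPM, and in the controls it fell from 3.89 ± 1.24 CPM (SD, n = 4) to a median of 0 CPM, with a difference of 7.54 ± 1.42 (limma adjusted p = 0.0032).

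Slc1a3, a glutamate transporter, had no read in cultured N1OE and 5.66, 11.2, 8.76 and 7.21 CPM after re-isolation, a range that overlaps the re-isolated controls (0.0533 to 12.4 CPM). The cultured controls, at 35.9 ± 32 CPM (SD, n = 4), did not overlap cultured N1OE, and limma-voom did not call the difference of 9.78 ± 1.43. Hand1, a mesoderm factor with a difference of 7.68 ± 0.97, fell below the filter in N1OE (at most 0.305 CPM in any library) and went from 43.9 ± 22.7 to 0.00384 ± 0.0115 CPM (SD, n = 4 and 9) in the controls. In the other direction, Sfrp2, a secreted Wnt modulator, fell from 49.4, 21.9 and 22.1 CPM to 1.65, 1.39, 0.0859 and 3.32 CPM and rose from 5.97 ± 6.5 to 113 ± 104 CPM (SD, n = 4 and 9) in the controls. Its difference was -8.66 ± 1.60 (limma adjusted p = 0.0026), with -10.23 for the marked and -6.70 for the unmarked controls, and limma-voom did not call it. Lgr5, an R-spondin receptor that amplifies Wnt signals, went from 47.4, 62.1 and 62.6 CPM to 1.99, 6.91, 2.58 and 1.61 CPM, against a rise from 5.67 ± 6.04 to 32.5 ± 23.7 CPM (SD, n = 4 and 9) in the controls, and its difference was -7.28 ± 1.02 (limma adjusted p = 0.00026).

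**Figure D5:**
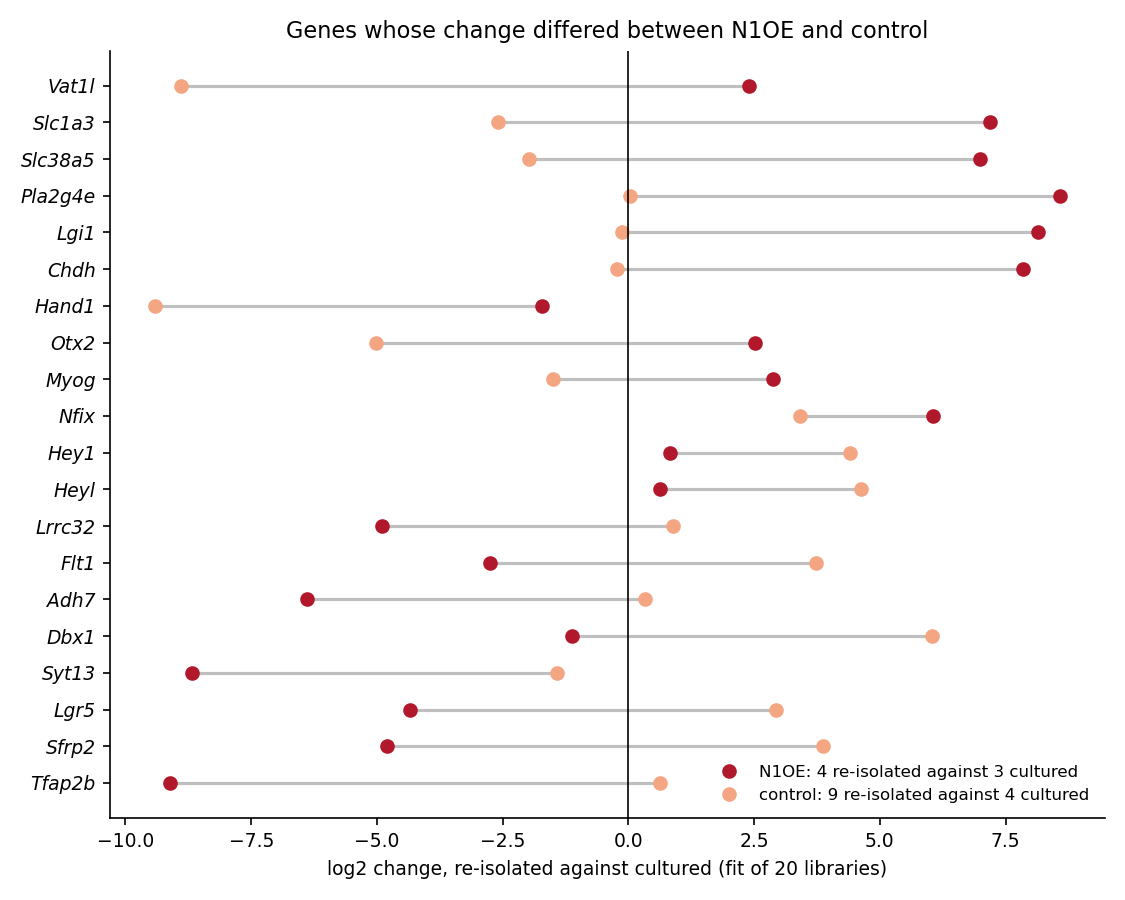
Log2 change from culture to re-isolation in N1OE and in control for the genes with the largest differences between the 2, with lines joining the values of a gene. Genes whose change was higher in N1OE are led by Vat1l with a difference of 11.30, and genes whose change was lower by Tfap2b with -9.74.

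Measures of the library moved with the setting in both genotypes. In 5 equal groups of genes by transcript length the median log2 change in N1OE went from 0.39 in the shortest to -0.89 in the longest, and from 0.53 to -1.18 in the controls. In the difference between them the medians went from -0.21 to 0.28. The part of length and kit in single genes was not tested.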

How the data were processed

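Gene levels were read from 1 table of log2 CPM values, which the authors deposited for 23 libraries and 21264 genes. Per the submitters' processing notes, Trimmomatic 0.33, FastQC, featureCounts and edgeR were used with mm10. An aligner is not given in the sources used here. In the deposited values the lowest log2 value, -4.19032, stands for 0 reads. The deposited log2 values were turned back into CPM (prior 0.0547758 CPM) and into whole reads (tolerance 0.05 reads), from which depth, zero counts and bounds were taken. A bound uses a floor of 3 reads over the group, intervals are exact at 95%, and both cover counting error only.

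Differences were tested on log2 CPM with limma 3.58.1 (R 4.3.3, empirical Bayes with a trend) over the 7 N1OE libraries, and over 20 libraries of 4 groups for the controls and for the difference N1OE minus control. Genes needed 1 CPM or more in 3 or more libraries of the fit, p-values were adjusted by Benjamini-Hochberg over all genes of a fit with a threshold of 0.05, and fold changes are differences of log2 CPM. The libraries of Notch1 knockout cells were not used. Members and gene lists (33 lists, 549 of 554 entries found) were chosen with earlier results of these data known.

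Named genes were a fixed set of Notch, muscle and growth genes, the 10 largest rises and 10 largest falls that passed in every fit without 1 library with no overlap and a mean of at least 20 CPM, up to 4 members per list, and the 8 largest differences in each direction that also passed with each set of controls. Other list members are named to describe a list and were chosen after their values were seen. Genes with no or few re-isolated reads drop below the filter when a cultured library is left out and so cannot enter the largest falls. Ribosomal, mitochondrial and other genes with near-identical copies are uncertain. Genes H19, Meg3, Xist and Tsix are not analysed here. The test was tried on simulated data with known changes. Alternatives changed the pseudocount, filter, scaling, weights, test, fold threshold, control set, replicate block and each library in turn. Another averaged cultured replicates 2 and 3.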

Additional observations from a re-analysis of the deposited data

Results flagged for a closer look

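Among 49 genes checked for a library far from the others of its group, 2 stood out in re-isolated N1OE, and chance alone marks about 1 group in 20. Pax7 was at 154 CPM in replicate 2, above 91.8 to 98.6 CPM in the other 3 libraries. Cbln1, a synaptic protein, was at 2.61 CPM in replicate 1 and had no read in the other 3.

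The change from culture to muscle differed between N1OE and control (limma, adjusted p under 0.05) for the genes with the largest differences and for key genes. The values are differences of changes and not of levels. The change was higher in N1OE for Vat1l (log2 difference 11.30), the glutamate transporter Slc1a3 (9.78), the amino acid transporter Slc38a5 (8.97), the phospholipase Pla2g4e (8.53), the secreted protein Lgi1 (8.27), choline dehydrogenase Chdh (8.07), Hand1 (7.68) and Otx2 (7.54), with Myog (4.37) and Nfix (2.63). Slc38a5 had 0.297, 0.0629 and 0.0508 CPM in cultured N1OE and 15.9, 20, 18.2 and 32.8 CPM after re-isolation, while both control groups stayed at or under 4.23 CPM. Chdh went from 0, 0.0629 and 0.152 CPM to 22, 33, 30.7 and 18.5 CPM in N1OE.

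The change was lower in N1OE for Tfap2b (-9.74), Sfrp2 (-8.66), Lgr5 (-7.28), the synaptotagmin Syt13 (-7.26), the homeobox gene Dbx1 (-7.15), the alcohol dehydrogenase Adh7 (-6.72), Flt1 (-6.47) and Lrrc32 (-5.77), with Heyl (-4.01) and Hey1 (-3.58). Hey1 and Heyl were above every cultured control in cultured N1OE, and their change was lower because they rose more in the controls. Lrrc32, which holds latent TGF-beta at the cell surface, had 175, 109 and 114 CPM in cultured N1OE and 4.36, 1.7, 8.51 and 5.39 CPM after re-isolation. Dbx1 did not pass in N1OE itself, at 13.1, 4.03 and 4.21 CPM in culture and 1.68, 1.75, 3.95 and 4.98 CPM after re-isolation. The calls of Pla2g4e and Syt13 were lost in 11 and 15 of 20 fits without 1 library. Limma-voom did not call the differences for Pla2g4e, Syt13, Lgi1, Dbx1, Slc1a3, Sfrp2, Hey1, Heyl and Nfix.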

How the results depend on the processing

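Under the alternatives run, no call of a named gene was reversed in direction. This does not cover genes that did not pass, such as Cdh15 and Rbpj, whose small changes can switch sign. Of pairs of a named gene and an alternative, 2763 stayed on the same side of the threshold, 60 lost the call and 7 gained it. For the 16 genes with the largest differences 484 stayed and 41 lost it. Testing against a 2-fold change left 3932 N1OE calls (1871 higher, 2061 lower), 3737 control calls (1499 and 2238) and 125 differences (100 and 25). Differences from the controls numbered 834 (563 higher, 271 lower) with the marked controls by description, 983 (664 and 319) by header, 1672 (948 and 724) with the unmarked ones by header, 635 (450 and 185) with the unmarked ones by description, which adds replicate 7, 1287 (774 and 513) with array weights and 224 (154 and 70) by limma-voom. Leaving out 1 library gave 235 to 497 differences (176 to 355 higher, 59 to 150 lower), lowest without cultured N1OE replicate 3 and 240 without replicate 2, and 6051 to 8376 N1OE calls. The cause was not tested.

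With the replicate number as a block N1OE had 8400 calls and the difference 318, but numbers do not pair the libraries (r of deviations -0.071, -0.0172 and -0.0321 for the same numbers). The planned edgeR test on recovered reads was not run, and limma-voom on those reads took its place. Kit and setting cannot be told apart. A gene with no read in a library of 11637817 reads may have been present at up to 0.258 CPM.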

Other observations

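Some of the largest falls lie outside the rule for named genes, because they had almost no re-isolated reads, and were chosen after their values were seen. Krt8, a keratin of simple epithelia, had 68.2, 156 and 156 CPM in cultured N1OE and no read in the 4 re-isolated libraries, at least 3350-fold lower against 3 reads over the group. Scg2, a secretory granule protein, went from 771, 257 and 245 CPM to 0.377, 0.309, 0.773 and 0.311 CPM.

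Of 15 p53 target genes 10 fell and 3 rose, with a median log2 change of -1.37 against -0.23 for all genes. Ccng1, a cyclin induced by p53, went from 1526, 1504 and 1476 CPM to 34.3, 21.6, 55.1 and 78 CPM. Of 22 cytosolic ribosomal protein genes 19 fell and none rose (median -1.63), and 17 fell in the controls. Of 10 mitochondrially encoded genes tested 8 fell and none rose (median -3.44), and near-identical nuclear copies make their levels uncertain. Of 20 glycolysis genes 7 rose (35%) and 5 fell (25%), beside 25.3% and 33% of all genes. These counts became 9 and 3 under median ratio scaling.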
